A study of Mus musculus with 19 samples.

Results

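The 10 genes described here encode Golgi glycosyltransferases that branch glycans or cap them with sialic acid: Gcnt1, Gcnt2, St3gal1, St3gal2, St3gal3, St3gal4, St3gal6, St6gal1, B4galt1 and Mgat1. They were listed by name and read from the rows of 2 raw count tables, 1 for each type of dendritic cell, that hold 24421 gene symbols each. All 10 were present, and all 10 passed the filter on low counts in both cell types. The genes were chosen by name and function, with earlier differences between groups in these same counts in view, among them that of Gcnt2, and with no threshold stated. The number of these genes that differed between groups is therefore a description of the list and supports nothing further.

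The study addressed what the transcription factor XBP1 and the stress sensor IRE1α do in dendritic cells, by bulk RNA sequencing of conventional type 1 (cDC1) and type 2 (cDC2) cells sorted from the spleens of C57BL6 mice. The genotypes were WT, with 3 cDC1 and 4 cDC2 libraries, Xbp1 KO, deficient in Xbp1, and Xbp1-Ire1 KO, deficient in both Xbp1 and Ire1a, the knockouts with 3 libraries for each cell type. The descriptions of the WT libraries carry 2 names: cDC1 replicates 1 and 2 and cDC2 replicates 1 and 2 are called XBP1fl-fl-IRE1fl-fl (fl-fl hereafter, floxed alleles), while cDC1 replicate 3 and cDC2 replicates 3 and 4 are called XBP1-IRE1-WT (WT-named hereafter). Between 5000 and 50000 cells were sorted for a library. The sources used here do not state the age of the mice, the Cre driver, the deleted exons or any pooling. They also do not say whether each library is a mouse of its own, or whether cDC1 and cDC2 libraries came from the same mice. Each p-value below is thus set against a spread between libraries that may be technical.

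As background, N-glycans are trimmed and rebuilt in the Golgi: MGAT1 adds the first N-acetylglucosamine that opens the way to hybrid and complex forms, B4GALT1 adds galactose to that sugar, and sialyltransferases close the chain. GCNT1 makes the branch of core-2 O-glycans and GCNT2 the I-branch of repeated lactosamine chains. The ST3GAL enzymes attach sialic acid to galactose at the third carbon and ST6GAL1 at the sixth, and such caps are ligands or masks for selectins, galectins and Siglecs on immune cells. IRE1α splices the mRNA of Xbp1, and the protein made from the spliced form drives genes of the secretory pathway. IRE1α can also cleave other mRNAs, a process called regulated IRE1-dependent decay, which is known from cDC1 that lack XBP1.

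Total counts ran from 10606864 to 16209469 a library. The 5 cDC1 markers Xcr1, Clec9a, Cadm1, Tlr3 and Irf8 together reached 5830 to 8210 CPM (counts scaled to a library total of 1000000) in the cDC1 libraries and 160 to 302 CPM in the cDC2 libraries, and 6 cDC2 markers reached 12.9 to 87.3 and 1720 to 2190 CPM, so each type carried its own markers. Whole-gene Xbp1 ran from 92.9 to 117 CPM in cDC1 Xbp1 KO against 147 to 240 in cDC1 WT and 312 to 359 in cDC1 Xbp1-Ire1 KO. Ern1, which encodes IRE1α, ran from 52.3 to 72.6 CPM in cDC1 Xbp1-Ire1 KO against 23 to 29.9 in cDC1 WT, and from 20.6 to 30.2 against 20.1 to 30.7 in cDC2. Reads of the exons that remain enter these sums, so whole-gene counts do not check the genotype labels. The library cDC1 Xbp1 KO replicate 3 stood apart by a sum of 1500 CPM over 7 pancreatic acinar genes, which was at most 8.45 CPM in every other library. A list of 10 immediate early genes (among them Fos, Jun and Egr1) summed to 12900 to 14900 CPM in cDC1 Xbp1 KO, 8610 to 9090 in cDC1 WT and 5550 to 9130 in cDC1 Xbp1-Ire1 KO. Other lists also moved in cDC1: the 5 cDC1 markers summed to 7730 to 8210 CPM in Xbp1 KO against 5830 to 6580 in WT, and 4 monocyte markers to 112 to 190 in Xbp1 KO, 49.9 to 74.5 in WT and 44.7 to 168 in Xbp1-Ire1 KO. Of these 4, Csf1r had 15.4 to 163 CPM in Xbp1 KO against 24.5 to 46.9 in WT, and Ccr2 17.9 to 93.1 against 15.7 to 25.1. Both were higher in cDC2 WT, at 657 to 837 and 125 to 173 CPM. In cDC1, Ly6c2 had 3.35 to 7.93 CPM in Xbp1 KO against 4.15 to 8.45 in WT, and Fcgr1 0.245 to 1.55 against 0 to 1.22. The 3 neutrophil markers found in the files summed to 9.23 to 33 CPM in Xbp1-Ire1 KO against 0.685 to 4.01 in WT. The part of the early-gene, cDC1, monocyte and neutrophil sums in the results below was not tested. Values without the acinar library are given for the called differences between Xbp1 KO and WT in cDC1.

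Levels per kilobase of exon were used to set genes side by side. The length is that of all annotated exons of a gene together, not of the form expressed, so the order between genes is approximate. On this scale St3gal4, St6gal1 and Mgat1 stood highest in WT cDC1, and their libraries overlapped. They had 39.3 ± 5.31, 36.5 ± 3.44 and 36.2 ± 10.8 CPM per kb (SD, n = 3). B4galt1 followed at 12.6 ± 4.02 CPM per kb. Gcnt1, Gcnt2, St3gal2, St3gal3 and St3gal1 lay between 6.76 and 3.56 CPM per kb, each overlapping the next in this order, and St3gal6 was lowest at 0.727 ± 0.23, below every library of the others. In WT cDC2, St3gal4 alone led at 67.6 ± 9.42 CPM per kb (SD, n = 4), above every library of St6gal1 at 29.1 ± 2.42. Mgat1, Gcnt1, B4galt1, St3gal2 and Gcnt2 followed from 27.4 down to 18.5, each overlapping its neighbour, with a gap to St3gal1 at 3.45 and St3gal3 at 3.44, and St3gal6 was again lowest at 0.719 ± 0.116.

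**Figure D1:**
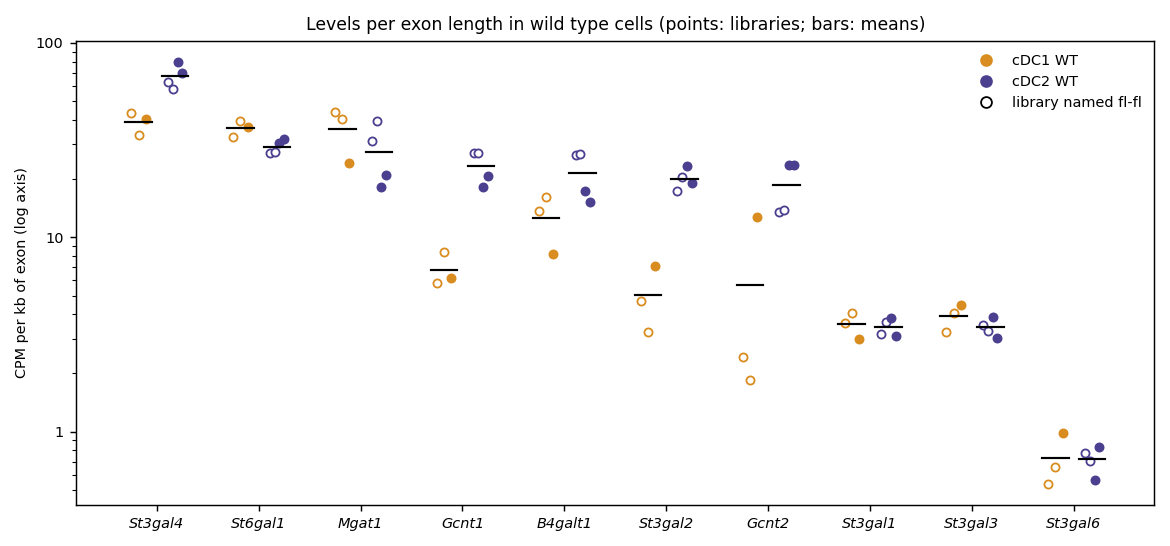
Levels of the 10 genes in WT libraries, as CPM per kilobase of exon on a log axis, for cDC1 (orange) and cDC2 (purple). Points are libraries, open points are libraries named fl-fl, and bars are group means: St3gal4 averages 39.3 in cDC1 and 67.6 in cDC2, and St3gal6 lies at 0.727 and 0.719.

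Between the WT cell types, tested by edgeR over all 19 libraries, 5 of the 10 genes were lower in cDC1 than in cDC2 and 1 was higher, where 40.8% of all 12185 genes were called, 20% higher and 20.7% lower. St3gal2, which sialylates core O-glycans and gangliosides, was 3.97-fold lower, at 25.3 ± 9.85 CPM in cDC1 (SD, n = 3) against 101 ± 12.7 in cDC2 (SD, n = 4; log2 difference −1.99 ± 0.19, SE; adjusted p = 4.09e-08). Gcnt1 stood 3.42-fold lower in cDC1 (38.9 ± 7.96 against 133 ± 26.2 CPM; −1.77 ± 0.18; adjusted p = 8.56e-08). Gcnt2 was 3.27-fold lower (−1.71 ± 0.45; adjusted p = 0.0041), St3gal4 1.72-fold lower (−0.78 ± 0.15; adjusted p = 0.000195) and B4galt1 1.70-fold lower (−0.77 ± 0.21; adjusted p = 0.00638). The cDC2-high members were thus both branching genes of the Gcnt family, 2 ST3GAL genes and the galactosyltransferase gene B4galt1. St6gal1 was the gene called higher in cDC1, by 0.33 ± 0.12 on the log2 scale (adjusted p = 0.0403), a call lost under 8 of 13 alternatives, including either WT name alone (adjusted p = 0.0605 with fl-fl libraries and 0.39 with WT-named ones). Libraries of the 2 cell types did not overlap for 5 of the 10 genes (41.7% of all genes), and among the called genes B4galt1 was the exception. Gcnt2 differed in size with the WT name: its log2 difference was −2.69 among fl-fl libraries and −0.89 among WT-named ones.

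St3gal4 and St3gal3, 2 enzymes that sialylate the galactose ends of lactosamine chains, are the genes whose counts separated the cDC1 genotypes furthest in the same way, so their promoters are shown first. Each is the 250 bases before the RefSeq start on the minus strand of GRCm38.p6, printed 5′ to 3′ as transcribed, with capitals marking CCACG or ACGTG on either strand. St3gal4 lies on chromosome 9 (chr9:35046576-35119268, GENCODE M21) and its upstream window is chr9:35116865-35117114. The St3gal4 window thus lies inside the GENCODE span of the gene, and the bases before the outermost GENCODE start were not searched. St3gal3 lies on chromosome 4 (chr4:117932154-118134914) with its window at chr4:118134947-118135196.
St3gal4 promoter: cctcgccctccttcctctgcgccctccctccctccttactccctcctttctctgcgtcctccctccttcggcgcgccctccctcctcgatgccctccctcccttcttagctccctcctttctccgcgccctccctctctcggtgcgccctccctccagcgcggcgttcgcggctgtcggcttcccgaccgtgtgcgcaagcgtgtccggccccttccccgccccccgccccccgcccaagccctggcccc
St3gal3 promoter: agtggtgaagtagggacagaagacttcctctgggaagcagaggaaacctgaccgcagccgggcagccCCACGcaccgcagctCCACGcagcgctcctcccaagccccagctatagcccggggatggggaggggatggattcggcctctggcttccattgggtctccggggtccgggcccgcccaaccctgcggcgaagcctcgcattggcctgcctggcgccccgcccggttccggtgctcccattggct
CCACG is part of the ER stress response element and ACGTG the core of the longer TGACGTGG element that XBP1 is known to bind, which itself contains both. The St3gal3 window holds 2 copies of CCACG and none of ACGTG, and the St3gal4 window holds neither. Gcnt1 also has 2 copies of CCACG before a start, and B4galt1, Mgat1 and St6gal1 have 1 each, St6gal1 with 1 ACGTG. The windows of Gcnt2 and St3gal6 hold neither. At least 1 CCACG stood in 28.3% and at least 1 ACGTG in 16.6% of 32851 RefSeq windows of the same length. TGACGTGG stood in 0.563% of windows, and TGATGCAA, an element bound by the stress factor ATF4 with its partners, in 0.791%. Neither stood in the St3gal4 or St3gal3 window. A match describes letters only and is not a site.

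For the cleavage side of the pathway, coding sequences were searched for CTGCAG, the DNA letters of the core at which IRE1α is known to cut RNA when it lies in the loop of a hairpin. St3gal4 has 1 copy, in exon 5 of 11 (chr9:35054502-35054507, minus strand), and St3gal3 has none. Mgat1, on chromosome 11 (chr11:49244191-49263030), has 3, the most of the 10 genes, all in its last exon. Windows of 30 bases, 5′ to 3′ in coding direction with CTGCAG in capitals, are given for these.
St3gal4 coding window: cagcccatctttCTGCAGcttaaggattat
Mgat1 coding window at chr11:49260708-49260713: tgaagaagcagaCTGCAGggcttgtgcttt
Mgat1 coding window at chr11:49261167-49261172: cttcctatggcaCTGCAGtcacacacatcc
Mgat1 coding window at chr11:49261742-49261747: gacctgtcgtacCTGCAGcaggaggcctat
St3gal1, St3gal6 and B4galt1 have 2 copies each, St3gal2 and St6gal1 1 each, and Gcnt1 and Gcnt2 none. Of coding sequences within 20% of the length of St3gal4, 58% hold at least 1 copy, and of those near the length of Mgat1, 18.1% hold as many as 3. Hairpins were not predicted, and no cleavage was measured.

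St3gal4 had 1498, 1249 and 1467 counts in cDC1 WT, or 128, 97.6 and 119 CPM. In cDC1 Xbp1 KO it had 27.8, 31.8 and 23.9 CPM, and in cDC1 Xbp1-Ire1 KO 123, 116 and 137 CPM. All 3 Xbp1 KO libraries lay far under the other 6, which overlapped one another. St3gal4 fell 4.15-fold in Xbp1 KO against WT (log2 difference −2.05 ± 0.15, SE; adjusted p = 2.23e-06, edgeR with Benjamini-Hochberg adjustment) and stood 4.54-fold higher in Xbp1-Ire1 KO than in Xbp1 KO (2.18 ± 0.15; adjusted p = 1.19e-06). Between Xbp1-Ire1 KO and WT the difference was 0.13 ± 0.15 (adjusted p = 0.65). Both calls passed under every alternative run, from −2.15 to −1.95 for the first, and without the acinar library the difference was −1.95 (adjusted p = 3.86e-05). In bulk libraries, fewer cells with the transcript and less of it per cell cannot be told apart. The opposite-strand gene 4930581F22Rik, which overlaps St3gal4, had at most 29 counts in a library; the sources used here do not state whether the counting used strand.

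St3gal3 had the same order of Xbp1 KO against the other genotypes at a lower level. It had 9.05, 11.3 and 12.4 CPM in cDC1 WT, 3.65, 5.99 and 2.06 in Xbp1 KO, and 12.7, 16.6 and 15.2 in Xbp1-Ire1 KO. The 3 genotypes did not overlap, with Xbp1 KO lowest and Xbp1-Ire1 KO highest. St3gal3 fell 2.82-fold in Xbp1 KO against WT (−1.50 ± 0.34; adjusted p = 0.0129) and was 3.85-fold higher in Xbp1-Ire1 KO than in Xbp1 KO (1.94 ± 0.34; adjusted p = 0.00237), while Xbp1-Ire1 KO stood 0.45 ± 0.31 above WT (adjusted p = 0.437). The fall did not pass against the WT-named control by itself (−1.67, adjusted p = 0.0696) or without Xbp1 KO replicate 1 (−1.44, adjusted p = 0.063), and it was −1.18 (adjusted p = 0.0384) without the acinar library. The rise between the knockouts passed under all 11 alternatives, from 1.62 to 2.38.

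The other 3 ST3GAL genes gave no call in cDC1. St3gal1, which caps core O-glycans, had 20.6 to 27.8 CPM in WT, 24.8 to 31.5 with Xbp1 deleted and 15.8 to 21.4 with both genes deleted, and the 2 knockouts did not overlap (−0.49 ± 0.19 between them; adjusted p = 0.103). St3gal2 had 16.4 to 35.9 CPM in WT, with the highest value in the WT-named library, 19.97 to 21.2 in Xbp1 KO, and the Xbp1-Ire1 KO libraries had 24.5 to 30.3. St3gal6 had low counts, at 25 to 114 counts a cDC1 library, and its log2 difference from WT was −0.64 ± 0.47 in Xbp1 KO and 0.01 ± 0.46 in Xbp1-Ire1 KO.

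St6gal1, the enzyme that caps N-glycans at the sixth carbon and is abundant in lymphoid cells, was the gene called in Xbp1-Ire1 KO against WT. It had 161, 195 and 182 CPM in cDC1 WT, 147, 141 and 118 in Xbp1 KO, and 98.7, 125 and 113 in Xbp1-Ire1 KO. The WT libraries lay above both knockouts, and the 2 knockouts overlapped. St6gal1 fell 1.59-fold in Xbp1-Ire1 KO (−0.67 ± 0.14; adjusted p = 0.00797), a call lost in 1 of 13 alternatives, without Xbp1-Ire1 KO replicate 1 (−0.59, adjusted p = 0.051). In Xbp1 KO it stood 1.34-fold lower without passing (−0.42 ± 0.13; adjusted p = 0.0596), and the 2 knockouts differed by −0.25 ± 0.13 (adjusted p = 0.242).

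**Figure D2:**
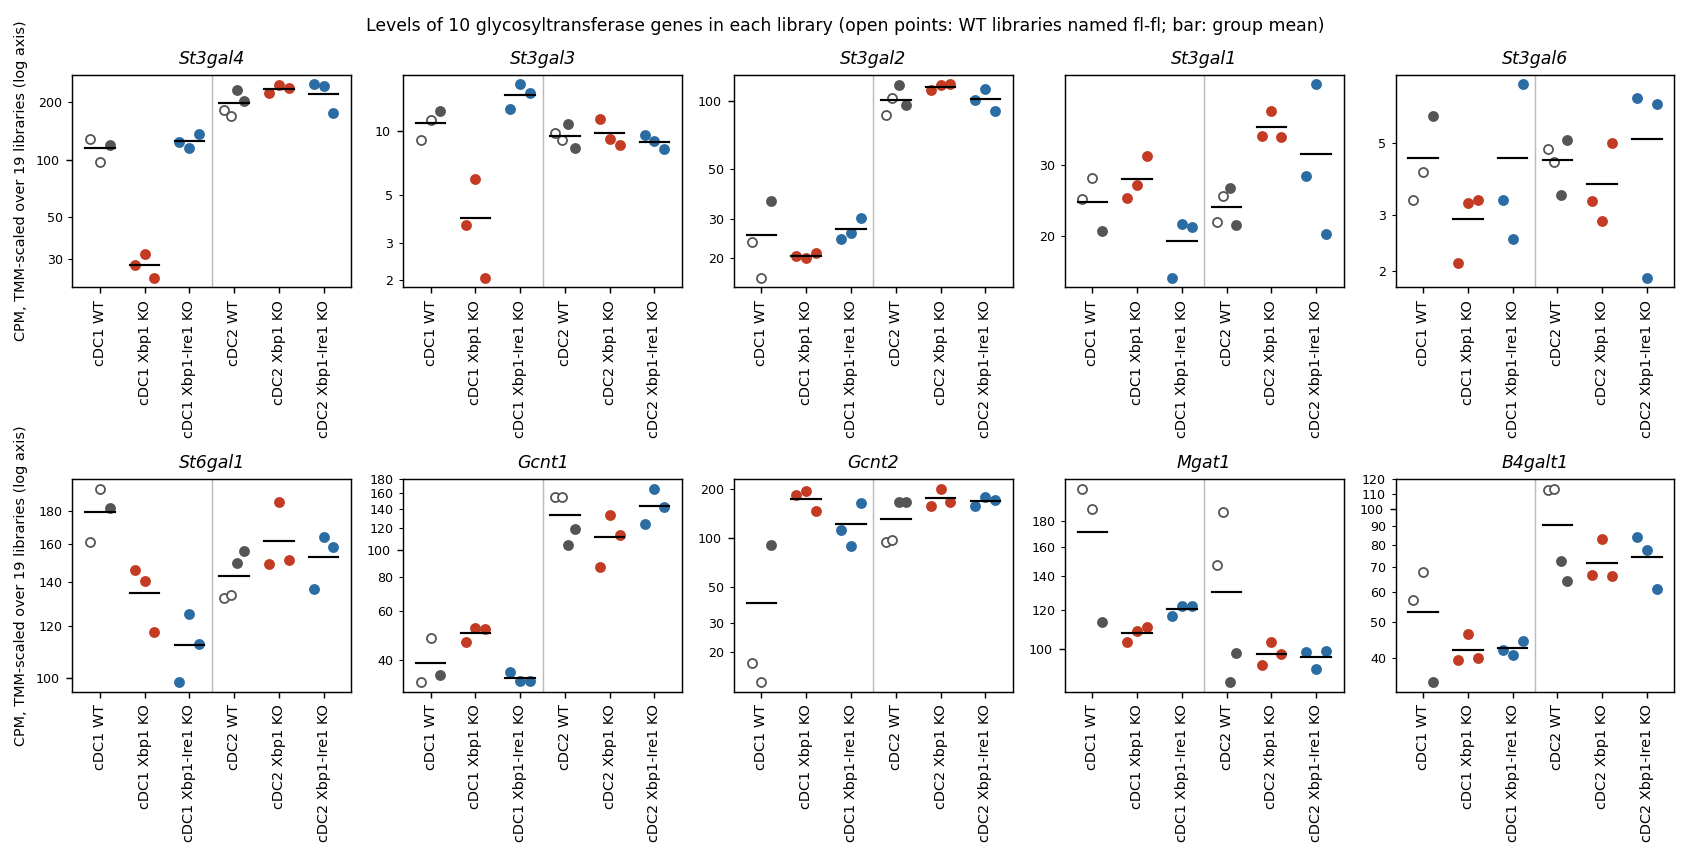
CPM of each of the 10 genes in each of the 19 libraries, on log axes that differ between panels, with bars at group means and WT libraries named fl-fl drawn open. St3gal4 and St3gal3 are lowest in the 3 cDC1 Xbp1 KO libraries, and the open WT points lie apart for Gcnt2, Mgat1 and B4galt1 in both cell types.

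The branching genes Gcnt1 and Gcnt2 were each called in 1 genotype comparison of cDC1. Gcnt1, which lies on chromosome 19 (chr19:17326141-17372844), had 33.4, 48.1 and 35.4 CPM in cDC1 WT, 46.7, 52.2 and 51.7 in Xbp1 KO, and 36.4, 33.6 and 33.6 in Xbp1-Ire1 KO. The 2 knockouts did not overlap and WT spanned the gap. Gcnt1 was 1.44-fold lower in Xbp1-Ire1 KO than in Xbp1 KO (−0.52 ± 0.16; adjusted p = 0.0463), a call lost under 7 of 11 alternatives (adjusted p from 0.019 to 0.137), among them the removal of any 1 library of either knockout.

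Gcnt2, on chromosome 13 (chr13:40859754-40960892), parted widely within WT cDC1. The fl-fl libraries had 17.1 and 13.1 CPM and the WT-named library 89.7, a log2 gap of 2.58 between the names, while Xbp1 KO had 183, 193 and 146 and Xbp1-Ire1 KO 112, 88.7 and 164. The WT-named library thus overlapped Xbp1-Ire1 KO and lay under Xbp1 KO. Against all WT libraries Gcnt2 rose 4.32-fold in Xbp1 KO (2.11 ± 0.53; adjusted p = 0.0236), but the difference was 3.53 (adjusted p = 6.68e-07) against the fl-fl libraries and 0.96 (adjusted p = 0.114) against the WT-named one. The call was also lost without WT replicate 1, WT replicate 2, Xbp1 KO replicate 1 or Xbp1 KO replicate 2 (adjusted p from 0.0578 to 0.101), and it was 2.23 (adjusted p = 0.0404) without the acinar library. In Xbp1-Ire1 KO the difference from WT was 1.61 ± 0.53 (adjusted p = 0.0802), at 3.01 (adjusted p = 4.31e-06) against fl-fl and 0.44 (adjusted p = 0.408) against WT-named libraries. In cDC2 the same names parted the WT libraries, at 94.7 and 97.2 CPM for fl-fl and 166 and 165 for WT-named, with the 6 knockout libraries between 157 and 201. Gene-level counts do not separate the 3 RefSeq starts of Gcnt2.

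Mgat1 and B4galt1, which act early and late in building an N-glycan antenna, parted with the WT name in the opposite direction. Mgat1 had 210 and 191 CPM in cDC1 of the fl-fl name and 113 in the WT-named library, against 103, 109 and 111 in Xbp1 KO and 117, 122 and 122 in Xbp1-Ire1 KO. Mgat1 fell 1.60-fold in Xbp1 KO against all WT libraries (−0.68 ± 0.18; adjusted p = 0.0303), but by −0.89 (adjusted p = 5.57e-05) against fl-fl and −0.07 (adjusted p = 0.857) against the WT-named library. That call was lost under 6 of 13 alternatives, including the removal of each Xbp1 KO library in turn (−0.69, adjusted p = 0.0686, without the acinar library). B4galt1 had 57.4 and 67.9 CPM in fl-fl and 34.6 in the WT-named cDC1 library, with 39.5 to 46.6 in the 6 knockout libraries. Its difference from all WT libraries was −0.35 ± 0.20 in Xbp1 KO and −0.32 ± 0.20 in Xbp1-Ire1 KO, neither called, and its sign turned with the WT-named library alone (0.29 and 0.31).

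In cDC2, Mgat1 had 147 and 188 CPM in fl-fl and 86.0 and 98.4 in WT-named libraries, and B4galt1 had 112 and 113 against 72.7 and 64.4. The fl-fl libraries lay outside the range of all other libraries of their cell type for 3 of the 10 genes in cDC1 (Gcnt2, Mgat1 and B4galt1), where this held for 24% of all genes, and for 4 in cDC2 (the same 3 and St6gal1), where it held for 19.7%. The name goes with floxed alleles per the labels, and whether line, batch or sort day differed with it is not stated in the sources used here, so these cannot be told apart.

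Counting the 10 genes in cDC1, 1 rose and 3 fell in Xbp1 KO against WT, where 11.2% of 11353 genes were called (4.28% higher and 6.91% lower), and the median log2 difference was −0.39 beside −0.02 for all genes. In Xbp1-Ire1 KO against WT 0 rose and 1 fell (7.75% of all genes called, 3.04% higher and 4.71% lower), with medians of −0.08 and 0.01. Between the knockouts 2 were higher and 1 lower in Xbp1-Ire1 KO (12.7% called, 7.13% higher and 5.52% lower), with medians of 0.10 and 0.02. The groups did not overlap for 5, 2 and 6 of the 10 genes, beside 30.1%, 26.4% and 36.7% of all genes. These comparisons share libraries, and the list was made with results in view, so nothing is read from the counts. With the WT-named library as the only control, 1 gene was called in Xbp1 KO (St3gal4) and 1 in Xbp1-Ire1 KO (St6gal1). The count of 4 in Xbp1 KO was 1 without Xbp1 KO replicate 1 and 2 without WT replicate 1, WT replicate 2 or Xbp1 KO replicate 2, and 3 without the acinar library, and the count of 1 in Xbp1-Ire1 KO was 0 without Xbp1-Ire1 KO replicate 1 and 4 without WT replicate 3.

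**Figure D3:**
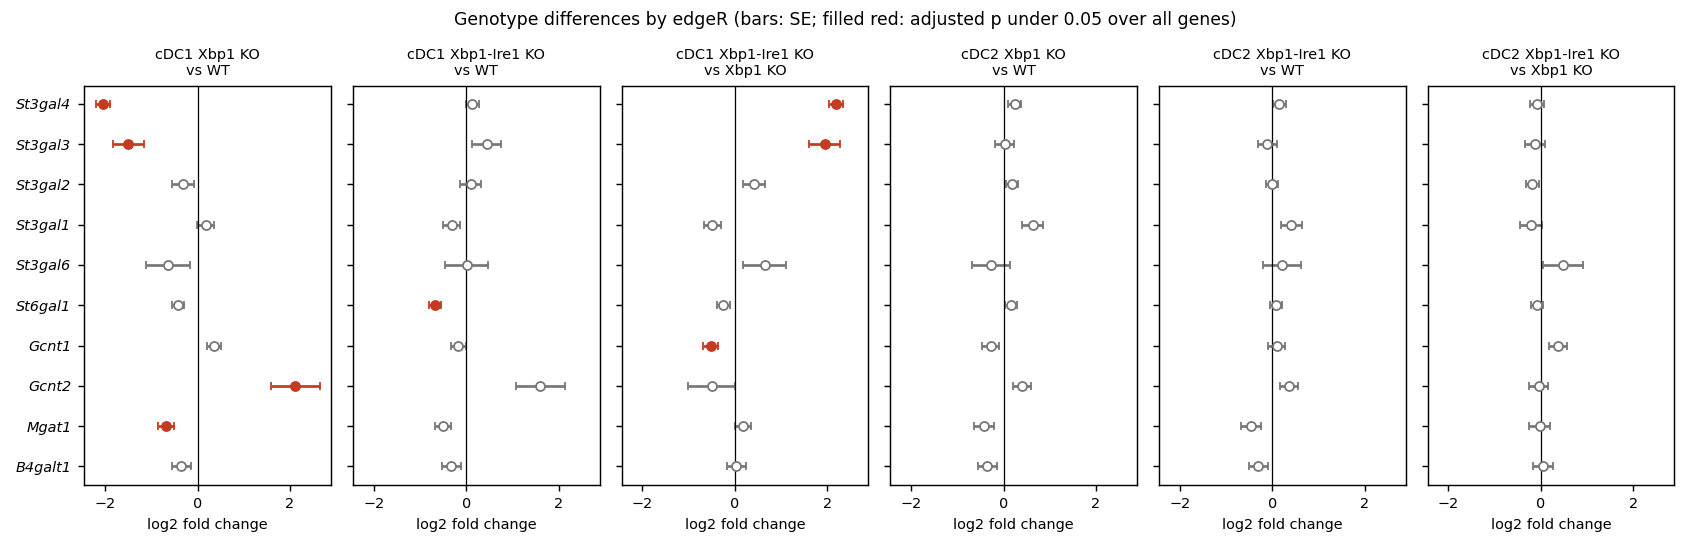
Log2 fold changes of the 10 genes between genotypes, by edgeR, in cDC1 (3 panels at left) and cDC2 (3 panels at right), with bars for 1 SE; filled red points passed an adjusted p under 0.05 over all genes. St3gal4 sits at −2.05 in cDC1 Xbp1 KO against WT and at 2.18 between the knockouts, and no point is filled in cDC2.

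In cDC2, 0 of the 10 genes were called by edgeR in Xbp1 KO against WT, in Xbp1-Ire1 KO against WT or between the knockouts, where 0.103%, 0.0258% and 0.0343% of 11646 genes were called. The shares called higher were 0.0687%, 0.0258% and 0.0258%, and those called lower 0.0343%, 0% and 0.00859%. At an unadjusted p under 0.05 the counts were 1, 0 and 0, and DESeq2 and limma on the deposited log2 values also called 0 in each. Whole-gene Xbp1 was likewise left uncalled by edgeR in this cell type. Its log2 difference from WT was −1.108 ± 0.245 with Xbp1 deleted (adjusted p = 0.247). With both genes deleted that difference was −0.638 ± 0.241 (adjusted p = 0.647). Libraries deficient in Xbp1 alone held 40.8 to 55.7 CPM of it, under every WT library (70.3 to 154). The lack of calls among the 10 genes therefore does not show that they were unchanged. St3gal4 had 170 to 233 CPM in WT, 223 to 247 in Xbp1 KO, and the Xbp1-Ire1 KO libraries had 175 to 250. St3gal3 had 8.36 to 10.8, 8.61 to 11.4 and 8.29 to 9.54 CPM in the same order, so all 3 genotypes overlapped for both genes that fell in cDC1. St3gal1 was the gene with the smallest p, at 21.3 to 26.3 CPM in WT and 35.0 to 40.7 in Xbp1 KO without overlap (0.63 ± 0.23; adjusted p = 0.471), and at 20.2 to 47.2 in Xbp1-Ire1 KO. Groups did not overlap for 1, 0 and 0 of the 10 genes, beside 9.8%, 6.16% and 15.8% of all genes. Against the fl-fl libraries alone Gcnt2 was higher and Mgat1 and B4galt1 were lower in both knockouts (0.83, −0.80 and −0.68 in Xbp1 KO), and against the WT-named libraries alone none was called.

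Some cDC1 and cDC2 libraries of a genotype carry the same number in their descriptions, and whether these share a mouse is not stated. Whether a genotype difference was unequal between the cell types was tested as an interaction over the 19 libraries, all treated as independent. For Xbp1 KO against WT it was called for St3gal4 (cDC1 minus cDC2 −2.30 ± 0.21; adjusted p = 1.05e-06) and St3gal3 (−1.53 ± 0.38; adjusted p = 0.0367), where 2.17% of 12185 genes were called (0.328% positive and 1.84% negative). For Xbp1-Ire1 KO against Xbp1 KO it was called for the same genes with the opposite sign, St3gal4 at 2.25 ± 0.22 (adjusted p = 1.54e-06) and St3gal3 at 2.05 ± 0.40 (adjusted p = 0.00457), with 2.14% of genes called (1.82% positive and 0.32% negative). For Xbp1-Ire1 KO against WT it was called for St6gal1 (−0.77 ± 0.18; adjusted p = 0.025), with 2.23% of genes called (0.755% positive and 1.48% negative). The St3gal4 interactions passed under every alternative, whereas that of St3gal3 in Xbp1 KO was lost under 14 of 19 (adjusted p up to 0.162, and −1.22 with adjusted p = 0.0861 without the acinar library) and that of St6gal1 under 8 of 19 (up to 0.174).

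Of 97 other genes of Golgi glycosylation, a list that was also drawn up with results in view, 75 were tested in cDC1 and 15 fell and 0 rose in Xbp1 KO against WT, or 20% called, where 11.2% of all genes were called (4.28% higher and 6.91% lower), with a median log2 difference of −0.21 beside −0.02 for all genes. The call of smallest p was St3gal5, the sialyltransferase that makes the ganglioside GM3: it fell 3.42-fold, from 219 ± 20.5 CPM in WT to 64.4 ± 4.65 in Xbp1 KO (SD, n = 3), and stood at 238 ± 23 in Xbp1-Ire1 KO. The mannosidase gene Man1b1 fell 1.79-fold, and Mgat2, which acts after MGAT1 to open the second antenna, 1.54-fold. Nans, which encodes the synthase of sialic acid, fell 1.72-fold and Cd22, a Siglec, 2.66-fold. By role, beside the same 6.91% of all genes called lower, 4 of 11 genes of N-glycan processing fell, 3 of 14 for O-glycan start and cores, 3 of 11 glycan-binding or acceptor genes, 2 of 15 for sugar nucleotide supply, and 1 each of 6 other sialyltransferases, 6 galactose or lactosamine genes and 2 fucosyltransferases, while none of 8 COG tethering genes and 2 sialidases was called. The count of 15 was 5 against the WT-named library and 21 against fl-fl libraries, and it was 7 without WT replicate 1 or Xbp1 KO replicate 1, 9 without WT replicate 2 or Xbp1 KO replicate 2, and 10 without the acinar library. As Cd22 is also a B cell gene, the sum over 5 B cell markers was 55.4 to 78.2 CPM in WT and 45.2 to 57.7 in Xbp1 KO, and its part in that gene was not tested.

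**Figure D4:**
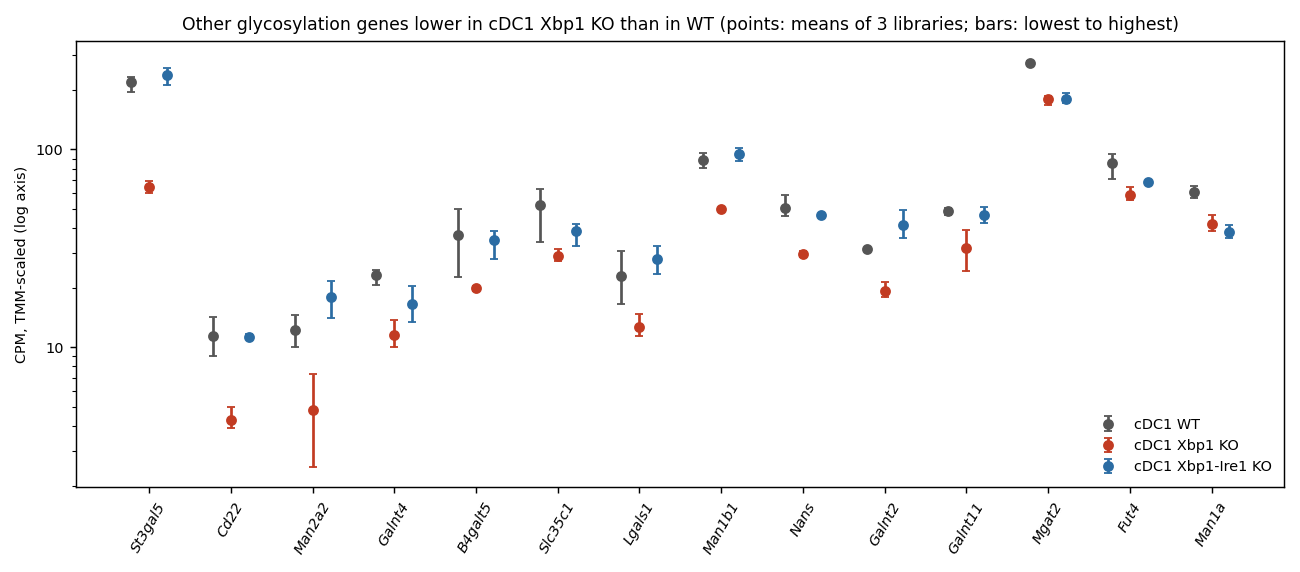
CPM in cDC1 of 14 of the 15 other glycosylation genes that fell in Xbp1 KO against WT, on a log axis, as means of 3 libraries with bars from the lowest to the highest, ordered by fold. St3gal5 averages 219 in WT, 64.4 in Xbp1 KO and 238 in Xbp1-Ire1 KO, while Mgat2 averages 274, 179 and 180.

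In Xbp1-Ire1 KO against WT 2 of the 75 rose and 7 fell, or 12% called, beside 7.75% of all genes (3.04% higher and 4.71% lower). Ugp2, whose enzyme makes UDP-glucose, rose 1.52-fold, from 69.1 ± 3.76 to 104 ± 11.2 CPM. Gfpt1, the entry enzyme of the hexosamine pathway that feeds N-acetylglucosamine, fell 1.71-fold (191 ± 9.67 to 111 ± 9.78 CPM), Mgat2 fell 1.51-fold and the selectin ligand gene Selplg 1.56-fold. St8sia6, whose enzyme adds sialic acid to sialic acid, fell 3.87-fold from 7.68 ± 3.11 CPM, and Man1a 1.58-fold. The count of 9 was 5 against the WT-named library and 4 without Xbp1-Ire1 KO replicate 1. Between the knockouts 11 were higher in Xbp1-Ire1 KO and 3 lower, or 18.7% called beside 12.7% of all genes (7.13% higher and 5.52% lower), and this total of 14 was 8 to 11 with any 1 library left out. St3gal5 stood 3.74-fold, Man1b1 1.93-fold, Galnt2 2.17-fold, Man2a2 3.78-fold and Cd22 2.65-fold higher. Mgat2 and Man1a were called lower than WT in both knockouts. In cDC2 edgeR called 0 of 79 in each of the 3 comparisons, with 8, 7 and 11 at an unadjusted p under 0.05, and DESeq2 and limma called 0 as well. Between WT cDC1 and cDC2, 21 of 81 were higher and 27 lower in cDC1, or 59.3% called beside 40.8% of all genes (20% higher and 20.7% lower), with Man1a 14.1-fold lower and the galectin gene Lgals3 5-fold higher.

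Genes were then ranked by how close their 6 group means of log2 CPM, each centred on its own average, lay to those of the 3 members with the widest range, among 11533 genes. For St3gal4, whose group means spanned 3.09 on the log2 scale, the closest were Abca7, a lipid transporter gene (distance 0.387), Tpp1, a lysosomal peptidase gene (0.402), and Stim2, a calcium sensor gene of the ER (0.413). Abca7 had 52.7 ± 4.09 CPM in cDC1 WT, 11.1 ± 2.72 in Xbp1 KO and 55.8 ± 12.4 in Xbp1-Ire1 KO, and 88.1 to 108 in the cDC2 groups. For St3gal2, which separates the cell types, they were Irf2bp2 (0.255), Panx1 (0.258) and AW011738 (0.269). For Gcnt2 they were Tsga10 (0.538), Slc16a10 (0.757) and Zfp473 (0.786), all under 4 CPM in every group mean and so poorly resolved. The distances describe 6 means from shared libraries and carry no test.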

How the data were processed

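Bulk RNA of 19 libraries of sorted spleen cDC1 and cDC2 was measured as raw counts per gene, which the authors deposited in 1 table for each cell type. A second deposited table for each holds log2 values; tested against the counts, they are log2 CPM with 0.5 added to each count and a constant shift per library. Per the submitters' processing notes, reads were handled on build mm10 with TopHat2 2.1.0, Trimmomatic 0.35, FastQC 0.11.4 and SAMtools 0.1.19, and limma 3.42.2 is also named. The counting program and its strand setting are not given in the sources available for this study.

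Counts were tested with edgeR 4.0.16 (R 4.3.3) by its quasi-likelihood test after filterByExpr (minimum count 10, total 15) and TMM scaling, with p-values adjusted over every gene tested (Benjamini-Hochberg) at a threshold of 0.05. Each cell type had 1 fit of its 3 genotypes, and the cell types and interactions had 1 fit of all 19 libraries. That joint fit did not pair cDC1 with cDC2 libraries. Each SE is the log2 difference divided by the root of F. CPM printed for genes are TMM-scaled over all libraries, and sums over marker, early or acinar lists are not scaled. Alternatives were no filter, DESeq2 1.42.0, edgeR with the size factors of DESeq2, a replicate block, limma 3.58.1 on the deposited log2 values, either WT name alone, and leaving out each library. The edgeR step was tested on simulated data. Figures were drawn with matplotlib 3.10.9. Loci and coding sequences are from GENCODE M21 (GRCm38) and promoters from RefSeq (GRCm38.p6), where 8 of the 10 genes matched.

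The members and lists were chosen with earlier results of these data known. All 10 members were named; of other glycosylation genes, the 6 of smallest p a comparison could be named, and 3 genes of closest pattern for each of 3 members. Of the genes counted, 1 is not reported here by name.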

Additional observations from a re-analysis of the deposited data

Results flagged for a closer look

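Of the 10 genes, 3 had a genotype difference that was unequal between cDC1 and cDC2 by an interaction test over the 19 libraries (edgeR, Benjamini-Hochberg adjustment over 12185 genes). For St3gal4 the difference between Xbp1 KO and WT was lower in cDC1 than in cDC2 by a log2 value of −2.302 (adjusted p = 1.05e-06), and that between Xbp1-Ire1 KO and Xbp1 KO was higher by 2.254 (adjusted p = 1.54e-06). For St3gal3 these values were −1.526 (adjusted p = 0.0367) and 2.054 (adjusted p = 0.00457). For St6gal1 the difference between Xbp1-Ire1 KO and WT was −0.773 (adjusted p = 0.025). In each case the cDC1 libraries of the 2 genotypes did not overlap and the cDC2 libraries did.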

How the results depend on the processing

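Of 19 differences of the 10 genes that were called, 265 alternative values kept their direction; 214 also kept the call and 51 lost it. Of 714 alternative values for the 56 differences between 2 groups that were not called, 20 passed and 56 changed sign. Called interactions are among the 19, while interactions that were not called are left out of these totals. In cDC1 comparisons with WT, fl-fl libraries alone and leaving out WT replicate 3 are the same fit, which enters these totals under both settings. What a replicate number marks is not stated in the sources used here, and libraries were treated as unpaired. These numbers are those of the sample titles, and for some libraries the descriptions carry another number. Of 18 same-number pairs within a cell type, 6 had a correlation of deviations over 0.1 (from −0.152 to 0.234). Between the 2 knockouts such pairs ran from 0.008 to 0.234 in cDC1 and from 0.019 to 0.228 in cDC2. Whether the numbers pair libraries is thus not settled, and pairs across the cell types were not examined. With a replicate block 69 of the 75 values (19 called and 56 not) kept sign and call, 2 lost the call, 1 gained it and 3 changed sign. DESeq2's size factors moved the median of all genes by at most 0.022 on the log2 scale.

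The number of the 10 genes called in cDC1 Xbp1 KO against WT was 4, but 1 with WT-named libraries only and 1 to 5 with 1 library left out (1 without Xbp1 KO replicate 1). In cDC1 Xbp1-Ire1 KO against WT it was 1, but 2 with no filter, 2 with limma, 2 with the replicate block, 4 with fl-fl libraries only and 0 to 4 with 1 library left out. The fl-fl fit is the same fit as that without WT replicate 3, so these 2 values of 4 are 1 result. In cDC2 it was 0, but 3 with fl-fl libraries only in each knockout against WT. For the interactions it was 2 in Xbp1 KO against WT, but 1 with the replicate block or WT-named libraries and 1 to 2 with 1 left out, and it was 1 in Xbp1-Ire1 KO against WT, but 2 with fl-fl, 0 with WT-named libraries and 0 to 2 with 1 left out. The cause was not tested.

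Changed signs, all of differences not called, were as follows, in log2 units. With fl-fl libraries only they were St3gal2 at 0.043 in cDC1 Xbp1 KO against WT, Gcnt1 at −0.137 and St3gal2 at 0.07 in cDC2 Xbp1-Ire1 KO against WT, and St3gal6 at −0.324 between cell types. With WT-named libraries only they were B4galt1 at 0.286 in cDC1 Xbp1 KO, St3gal2 at −0.406, St3gal6 at −0.423, B4galt1 at 0.309 and Mgat1 at 0.097 in cDC1 Xbp1-Ire1 KO, B4galt1 at 0.064 and Mgat1 at 0.083 in cDC2 Xbp1 KO, St6gal1 at −0.007, B4galt1 at 0.112 and Mgat1 at 0.056 in cDC2 Xbp1-Ire1 KO, and St3gal1 at −0.22 between cell types. The replicate block gave St3gal6 at −0.067 in cDC1 Xbp1-Ire1 KO, St3gal3 at −0.051 in cDC2 Xbp1 KO and St3gal1 at −0.006 between cell types. limma gave St3gal6 at −0.113 in cDC1 and St3gal2 at 0.012 in cDC2 Xbp1-Ire1 KO against WT, where St3gal2 was 0.005 with DESeq2, 0.006 with its size factors and 0.002 with no filter.

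With 1 library left out, St3gal2 ran from −0.535 to 0.043 in cDC1 Xbp1 KO against WT. In cDC1 Xbp1-Ire1 KO against WT, Gcnt1 ran from −0.276 to 0.002, St3gal2 from −0.149 to 0.428 and St3gal6 from −0.615 to 0.291, and B4galt1 from −0.031 to 0.097 between the cDC1 knockouts. In cDC2, St3gal3 ran from −0.108 to 0.12 in Xbp1 KO against WT, and Gcnt1 from −0.009 to 0.2, St3gal2 from −0.074 to 0.078 and St3gal6 from −0.065 to 0.609 in Xbp1-Ire1 KO against WT. Between the cDC2 knockouts Gcnt2 ran from −0.12 to 0.047, St3gal1 from −0.612 to 0.022, St3gal3 from −0.214 to 0.003, St3gal4 from −0.184 to 0.059, St6gal1 from −0.141 to 0.009, B4galt1 from −0.056 to 0.169 and Mgat1 from −0.066 to 0.012. Between cell types St3gal1 ran from −0.065 to 0.152 and St3gal6 from −0.263 to 0.187.

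Over all genes, calls in cDC1 numbered 1270 (345 to 2926 over the alternatives) in Xbp1 KO against WT, 880 (430 to 1966) in Xbp1-Ire1 KO against WT and 1437 (648 to 1962) between the knockouts; in cDC2 they numbered 12 (6 to 740), 3 (3 to 485) and 4 (2 to 11). They were 4971 (3156 to 5203) between cell types and 264 (173 to 430), 272 (170 to 463) and 261 (194 to 467) for the interactions. Depth limits the precision for St3gal6, at 25 to 114 counts in a cDC1 library, and for St3gal3, at 24 to 66 counts in cDC1 Xbp1 KO.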
